A study of Mus musculus with 6 samples.

Results

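Imprinted growth regulators and the placental gene Plac1 were examined in cells sorted from the posterior of mouse embryos by a Noto-GFP reporter. Of 10 genes (Dlk1, Peg3, Mest, Grb10, Plagl1, Cdkn1c, H19, Meg3, Nnat and Plac1), 9 had at least 1 probe set that the array annotation ties to that gene symbol alone. These were 28 of the 45101 probe sets on the array, and each gene's sets are numbered from the brightest. Over the whole array 18193 genes had such a probe set. The single probe set annotated with H19 also carries the symbol of a microRNA that H19 hosts, so H19 was not analysed here. The genes were chosen with the difference between the sorted populations known, so their own values are given as a description and no test of them is used as support.

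The GFP-positive cells, which per the study's title are notochord progenitors, and the GFP-negative cells came from the same embryos. All embryos were heterozygous for Noto-GFP on a mixed 129S3;ICR background, were of mixed sex, and were taken at embryonic day 8.5 with a median of 6 somites. Posterior tissue was pooled from 23, 39 and 52 embryos for pools 1, 2 and 3 and dissociated in 1% trypsin, and about 2600, 4300 and 6600 GFP-positive cells were sorted. Each pool gave 1 array of GFP-positive and 1 array of GFP-negative cells, so there were 3 arrays per group. The GFP-negative cells are all other cells of that tissue and not a single cell type.

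Imprinted genes are expressed mainly or only from the copy inherited from 1 parent, and many of them set the growth of the embryo and placenta. Paternally expressed members such as Dlk1, Peg3, Mest and Plagl1 and maternally expressed members such as Cdkn1c, Grb10 and Meg3 lie in clusters or alone on several chromosomes, and many are abundant in embryonic mesoderm and its derivatives. Dlk1 and Meg3 are neighbours on chromosome 12 and are expressed from opposite parental copies. Plac1 is an X-linked gene known for its high expression in trophoblast, the outer lineage of the placenta.

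Ranked by each gene's probe set with the largest decrease, the members with the 4 largest decreases in GFP-positive cells were Plac1, Peg3 (set 2), Mest and Dlk1. The brightest set of Peg3 had a smaller decrease than the brightest set of Plagl1. The 250 bases before the first listed start of Plac1, Peg3, Mest and Dlk1 are shown, 5′ to 3′ on the gene's strand. Every CG dinucleotide is in capitals. Imprinting marks are laid on CG dinucleotides, but no such mark was measured, so the capitals are not sites of known marks. Plac1 is shown as a placental gene. The sequences are from RefSeq (GRCm38.p6), which matched 8 of the 10 genes with 13 start sites. They lie at chrX:53240111-53240360 for Plac1, chr7:6730420-6730669 for Peg3, chr6:30733256-30733505 for Mest and chr12:109452573-109452822 for Dlk1. Plac1 and Peg3 are on the minus strand, and Mest and Dlk1 on the plus strand.
Plac1: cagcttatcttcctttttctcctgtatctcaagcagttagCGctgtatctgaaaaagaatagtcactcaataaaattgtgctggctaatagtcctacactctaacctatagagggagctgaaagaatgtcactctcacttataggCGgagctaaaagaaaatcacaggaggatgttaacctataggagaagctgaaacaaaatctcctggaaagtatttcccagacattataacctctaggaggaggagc
Peg3: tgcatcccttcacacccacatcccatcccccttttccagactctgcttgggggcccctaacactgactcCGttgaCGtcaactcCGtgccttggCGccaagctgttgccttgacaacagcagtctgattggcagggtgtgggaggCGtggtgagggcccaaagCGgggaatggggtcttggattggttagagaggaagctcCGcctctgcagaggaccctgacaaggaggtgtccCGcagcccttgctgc
Mest: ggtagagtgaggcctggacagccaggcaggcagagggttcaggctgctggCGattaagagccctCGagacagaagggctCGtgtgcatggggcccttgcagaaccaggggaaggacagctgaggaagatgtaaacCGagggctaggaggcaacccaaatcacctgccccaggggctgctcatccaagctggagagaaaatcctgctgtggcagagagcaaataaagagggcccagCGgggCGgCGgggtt
Dlk1: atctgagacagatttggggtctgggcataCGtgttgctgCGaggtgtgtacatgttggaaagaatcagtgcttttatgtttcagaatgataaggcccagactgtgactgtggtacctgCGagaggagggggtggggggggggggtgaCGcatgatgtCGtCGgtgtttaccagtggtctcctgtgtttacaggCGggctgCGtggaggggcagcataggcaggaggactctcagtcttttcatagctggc

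These windows held 2 CG dinucleotides for Plac1, 8 for Peg3, 7 for Mest and 8 for Dlk1, beside a median of 6 over all 32851 start sites. Mest has 2 further listed starts with 14 each and Plac1 a second with 4, so the counts depend on the start. Across the 13 start sites of the members the count ran from 0, at the second start of Meg3, to 40, at the first start of Grb10. Plagl1 is a zinc finger factor known to bind the palindrome GGGGCCCC, which reads the same on both strands. Searched in 300 bases around each start (250 before and 50 after), that element was found at 1 of the 13 start sites, that of Peg3 at position -201, and at 1.08% of all start sites. A match is a description of the letters and not of binding.

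The deposited values are linear array intensities, and the median intensity lay between 19.78 and 27.98 on the 6 arrays. Differences are given as GFP-positive minus GFP-negative on the log2(intensity + 32) scale, which understates changes of dim probe sets. Both arrays of pool 1 stood apart in RNA quality, with a Gapdh 3′ over 5′ signal ratio of 13.995 in the GFP-positive and 15.4 in the GFP-negative array, against 1.60 to 2.22 on the other 4 arrays. All 6 measured node and notochord genes passed as higher in GFP-positive cells, with a summed intensity of 7493 to 10295 in GFP-positive samples and 218 to 611 in GFP-negative samples. The other listed gene, T, was not analysed here. Lateral mesoderm markers (7 of 7 measured, 5 passed as lower) summed to 319 to 522 in GFP-positive samples and 1950.3 to 4491 in GFP-negative samples. Endothelial markers (6 of 7 measured, 5 passed as lower) summed to 177 to 356 in GFP-positive samples and 1374 to 1979.7 in GFP-negative samples. Primitive blood markers (6 of 6 measured, 1 passed as lower) summed to 331 to 5749.8 in GFP-positive samples and 12122 to 28425 in GFP-negative samples. Neural plate markers (5 of 5 measured, 1 passed as lower) summed to 972 to 1484 in GFP-positive samples and 2347 to 2641 in GFP-negative samples. The difference between these sums largely follows 1 of them, Nkx1-2, and does not stand for the other neural plate markers. Nkx1-2 read 400, 915 and 821 in GFP-positive and 1560, 2097 and 2043 in GFP-negative cells. Paraxial mesoderm markers (6 of 6 measured, 3 passed as higher) summed to 3465 to 3511 in GFP-positive samples and 892 to 1152 in GFP-negative samples, and none of the 4 yolk sac endoderm markers passed. These summed to 259, 1955.8 and 784 in GFP-positive and 139, 369 and 741 in GFP-negative samples, highest in GFP-positive pool 2. In such bulk samples fewer cells of a type and less RNA per cell cannot be told apart, and the part of these other cell types in the member values below was not tested.

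Plac1 had the largest decrease of the 28 probe sets over all 6 arrays on the log2(intensity + 32) scale, whereas Dlk1 set 1 had the larger ratio of group means (7.74 in favour of GFP-negative cells, beside 7.38 for Plac1). Its intensity was 38.0, 53.1 and 58.9 in GFP-positive cells of pools 1, 2 and 3, and 246, 376 and 485 in GFP-negative cells. The groups were far apart, and the mean was 50.02 ± 10.8 in GFP-positive cells and 369 ± 119 in GFP-negative cells (SD, n = 3 each). The log2 difference was -2.25 ± 0.27 (SE), with -1.99, -2.26 and -2.51 within the 3 pools. On GFP-positive arrays Plac1 lay between the 58.65th and 66.7th percentile of all probe sets, and on GFP-negative arrays between the 84.1st and 90.01st. Of the 4 listed trophoblast markers none was kept by the filter on dim probe sets: the 3 probe sets of Tpbpa did not exceed 16.5 and the 2 of Elf5 did not exceed 10.6 on any array, and the other 2, Gcm1 and Prl3d1, were not analysed here. Other genes of trophoblast that also mark embryonic tissues did have signal and are given with the placenta genes.

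Mest, a hydrolase-like protein of embryonic mesoderm, was lower in GFP-positive cells by nearly the same amount in every pool. Its intensity was 585, 1416 and 1449 in GFP-positive and 2349, 4487 and 4915 in GFP-negative cells. Every GFP-positive array was below every GFP-negative one, although pool 1 was the dimmest pool in both groups. The log2 difference was -1.78 ± 0.40 (SE), and -1.95, -1.64 and -1.74 within pools, so the spread between pools (SD 0.16) was much smaller than the difference. Even in GFP-positive cells Mest was bright, at or above the 91.2nd percentile of each array.

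Peg3, a large zinc finger protein, was measured by 5 probe sets, of which 3 were kept by the filter on dim probe sets. Set 1 read 3722, 2242 and 2199 in GFP-positive and 7302, 4292 and 3719.8 in GFP-negative cells. These groups touched, since GFP-positive pool 1 was just above GFP-negative pool 3, but within each pool the GFP-positive array was lower, with log2 differences of -0.97, -0.93 and -0.75. Set 2 read 474, 623 and 663 in GFP-positive and 1203, 2733 and 2899 in GFP-negative cells. Set 3, designed on the same source sequence (AB003040) as set 2, read 31.1, 46.0 and 34.4 in GFP-positive and 77.8, 311 and 163 in GFP-negative cells. The log2 differences of sets 1, 2 and 3 were -0.88 ± 0.30, -1.81 ± 0.34 and -1.50 ± 0.38 (SE), so the 3 shared their direction, and no test of their sizes was run. The other 2 sets of Peg3 read under 16 on every array and carry no usable level.

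Dlk1, a membrane protein with epidermal growth factor-like repeats that resembles Notch ligands, was bright on only 2 arrays. Its set 1 read 17.5, 34.4 and 35.3 in GFP-positive and 41.3, 369 and 265 in GFP-negative cells. The GFP-negative array of pool 1 thus lay just above the GFP-positive arrays, at the 60.5th percentile of its array, while the other GFP-negative arrays were at the 87.4th and 84.5th. The log2 difference was -1.77 ± 0.56 (SE), made up of -0.57, -2.60 and -2.14 within pools, so pool 1 differed from the other pools by more than 1.5 log2 units. Without the GFP-negative array of pool 1 the difference was -2.51, where Plac1 had -2.49, and without that of pool 2 it was -1.28. The suffix of this probe set's name (s) marks probes that can bind transcripts of related sequence. Dlk1 set 2 read between 0.917 and 8.86 on all arrays and was not kept. Summed markers of several cell types were also lower on the GFP-negative array of pool 1 than on those of pools 2 and 3. Lateral mesoderm summed to 1950.3 there, against 4491 and 4340, endothelium to 1374, against 1979.7 and 1953. Primitive blood summed to 12122, against 18503 and 28425. Node and notochord, neural plate and yolk sac endoderm sums were lower there too, and the paraxial mesoderm sum was not. That array also had the Gapdh 3′ over 5′ ratio of 15.4. The part of any of these in the Dlk1 reading was not tested.

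**Figure D1:**
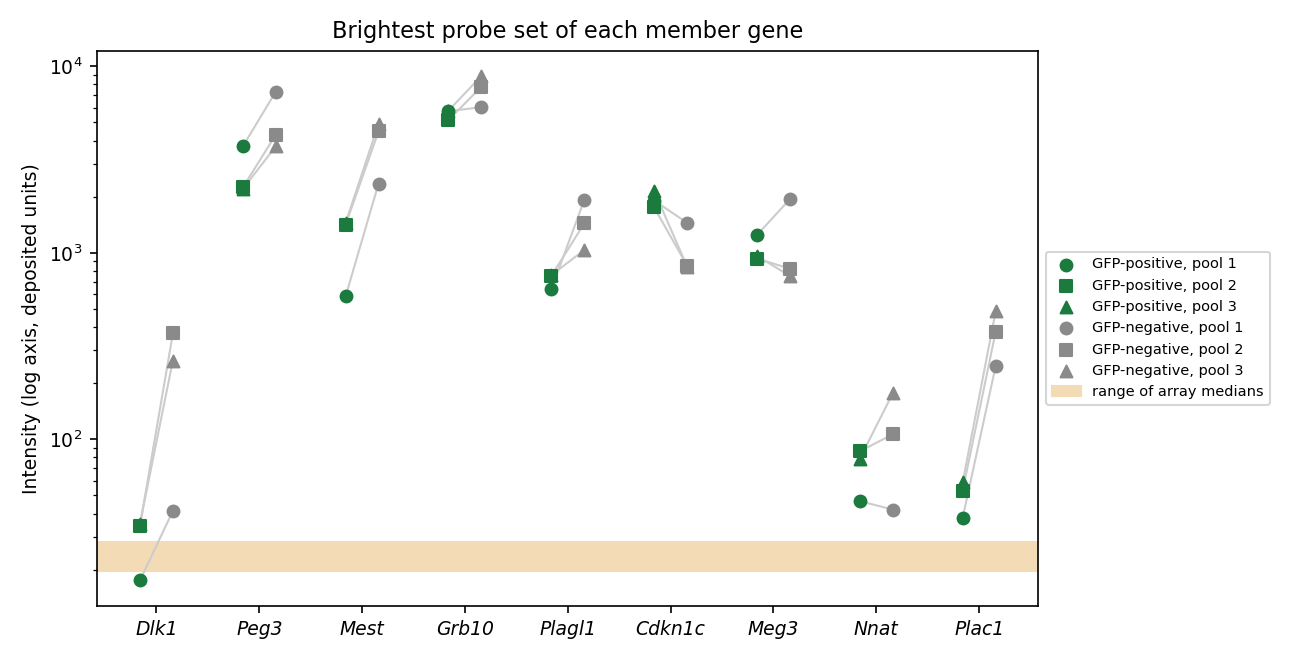
Intensity of the brightest probe set of each of the 9 measured genes on a log axis, with GFP-positive arrays (green) to the left of GFP-negative arrays (grey), pools marked by symbol and joined by lines, and the range of array medians shaded. Plac1, Mest, Plagl1, Grb10 and Dlk1 are lower on all GFP-positive arrays than on any GFP-negative one, Cdkn1c is higher, and Dlk1 lies far above the array medians only on the GFP-negative arrays of pools 2 and 3.

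Plagl1, a zinc finger factor that restrains cell growth and regulates other imprinted genes, was lower in GFP-positive cells by about 2-fold. Its set 1, whose name has the suffix for probes that may bind other transcripts (x), read 639, 752 and 759 in GFP-positive and 1917, 1438 and 1035 in GFP-negative cells. The groups did not overlap, but the gap differed between pools, with log2 differences of -1.54, -0.91 and -0.43. Set 2 read 21.9, 17.2 and 19.7 in GFP-positive and 38.8, 39.1 and 29.4 in GFP-negative cells, close to the array medians. Set 3 read 1.59, 1.96 and 1.71 in GFP-positive and 1.38, 20.4 and 23.4 in GFP-negative cells and was not kept. Its 2 higher readings, like those of Dlk1, were on the GFP-negative arrays of pools 2 and 3, but they stayed below 27.98.

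Cdkn1c, which encodes the cyclin-dependent kinase inhibitor p57 and slows the cell cycle, was the one gene that ran the other way. Its intensity was 1907, 1750.1 and 2145 in GFP-positive and 1448, 854 and 844 in GFP-negative cells. All GFP-positive arrays were above all GFP-negative arrays, with means of 1934 ± 199 and 1049 ± 346 (SD, n = 3 each). The log2 difference was 0.90 ± 0.25 (SE), with 0.39, 1.01 and 1.31 within pools, smallest in pool 1.

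Grb10, an adaptor that dampens signalling from insulin and growth factor receptors, was among the brightest genes in both populations. Its set 1 read 5749, 5152 and 5787 in GFP-positive and 6038, 7775 and 8876 in GFP-negative cells, at or above the 99.2nd percentile on every array. The groups did not overlap, yet the log2 difference was only -0.43 ± 0.18 (SE) and was -0.07 in pool 1. Grb10 sets 2 and 3 read between 35.1 and 93.4, with log2 differences of 0.02 ± 0.24 and -0.29 ± 0.18 (SE). For set 2, the one at 0.02, the sign differed between pools.

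Nnat, a small membrane proteolipid of neural and endocrine cells, gave overlapping groups. It read 46.6, 86.3 and 78.8 in GFP-positive and 42.0, 106 and 176 in GFP-negative cells. Within pools the log2 differences were 0.09, -0.23 and -0.91, so neither the direction nor the size was shared.

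Meg3, a long non-coding RNA expressed from the maternal copy beside Dlk1, was covered by 11 probe sets, all kept, and they did not give 1 answer. In 6 of them the GFP-positive array was lower in all 3 pools, in 5 the sign was mixed, and in 4 the groups did not overlap, each time lower in GFP-positive cells. The largest decrease was that of set 5, which read 104, 76.4 and 62.4 in GFP-positive and 158, 267 and 174 in GFP-negative cells, a log2 difference of -1.02 ± 0.25 (SE). The 2 brightest sets disagreed. Set 2 read 1169.6, 650.3 and 661 in GFP-positive and 1259.7, 1222 and 1059.9 in GFP-negative cells, with a log2 difference of -0.55 ± 0.26 (SE). Set 1 read 1246, 930.4 and 963 in GFP-positive and 1941, 822 and 751 in GFP-negative cells, with a log2 difference of -0.04 ± 0.35 (SE), which ran from -0.28 without the GFP-negative array of pool 3 to 0.39 without that of pool 1. At the other end, set 6 had 0.27 ± 0.48 (SE), with -0.12 to 0.82 when single arrays were left out, from 215, 107 and 86.2 in GFP-positive and 252, 73.4 and 45.1 in GFP-negative cells.

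The probe sets of Meg3 and Peg3 split by how they read in pool 1, whose RNA stood apart. Pool 1 minus the mean of pools 2 and 3 was 0.95 in GFP-positive and 1.66 in GFP-negative cells for Meg3 set 6. It was 0.39 in GFP-positive and 1.27 in GFP-negative cells for Meg3 set 1. Both are annotated with the same source sequence (AV015833). Set 11 has that annotation too, but its pool 1 minus the mean of pools 2 and 3 was only 0.14 in GFP-positive and -0.07 in GFP-negative cells. That set was dim, at 15.4 to 29.9. For Meg3 set 7 it was 0.23 in GFP-positive and -0.70 in GFP-negative cells. For Peg3 set 1 had 0.74 in GFP-positive and 0.86 in GFP-negative cells, whereas set 2 had -0.41 in GFP-positive and -1.20 in GFP-negative cells. These 2 sets of Peg3 therefore ranked the pools in opposite order within the same sort. The pool 1 arrays also had the high 3′ over 5′ ratios given above, and the part of RNA quality in this split was not tested.

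**Figure D2:**
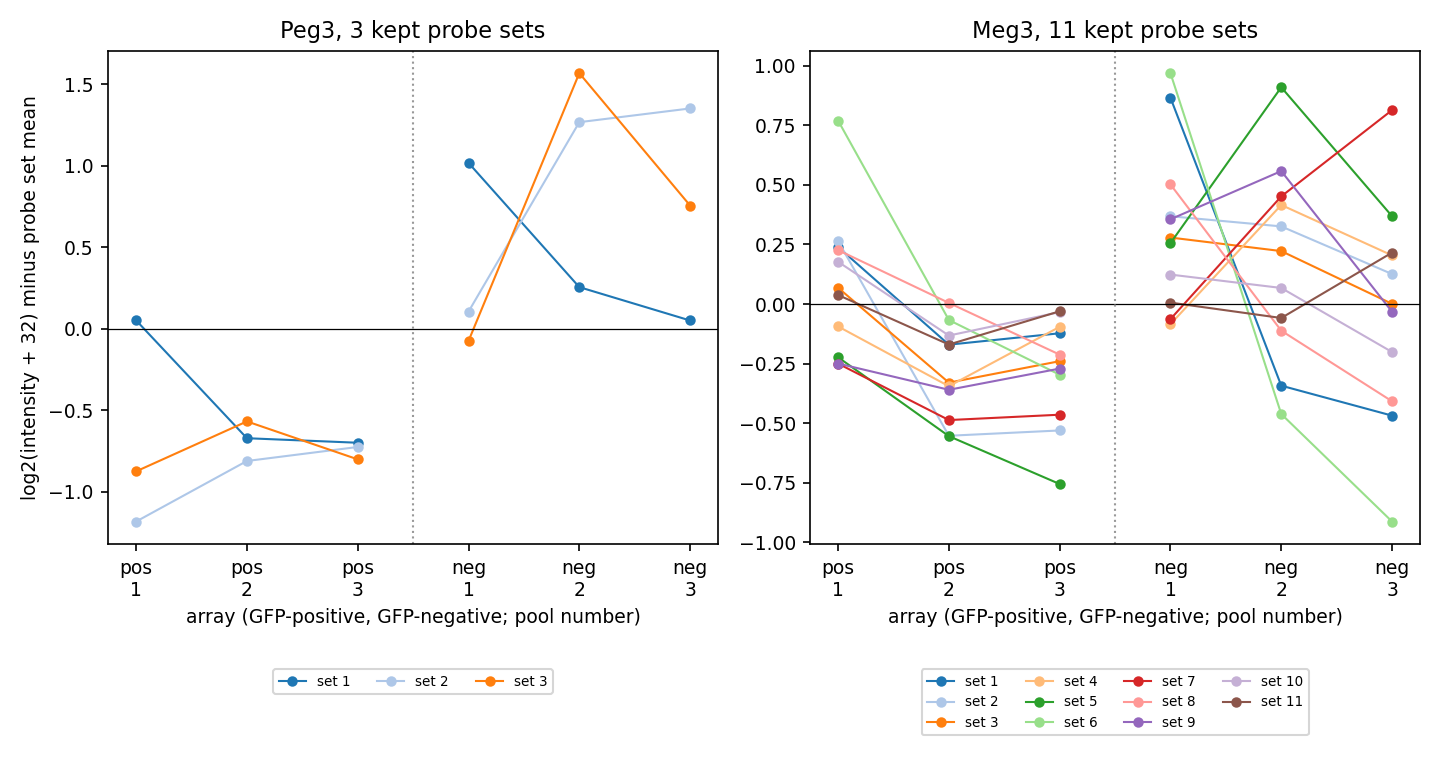
Kept probe sets of Peg3 (3) and Meg3 (11) on the 6 arrays, as log2(intensity + 32) minus each probe set's own mean, with GFP-positive arrays left and GFP-negative arrays right of the dotted line. Peg3 set 1 is highest in pool 1 in each group while set 2 is lowest there, and Meg3 sets 6 and 1 are higher in pool 1 than in pools 2 and 3 in GFP-negative cells.

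Over all 28 probe sets the median log2 difference was -0.37, and over the 24 kept ones -0.41, beside -0.03 over the 27821 kept probe sets of the array. In 17 of the 28 the GFP-positive array was lower in all 3 pools and in 1, Cdkn1c, it was higher in all 3, beside 27% and 17.4% of all probe sets. In 14 the groups did not overlap with GFP-positive lower and in 1 with GFP-positive higher, beside 13.1% and 8.5% of all probe sets. The 17 and the 14 both include Peg3 set 5, which read 0.178 to 6.34, was not kept and carries no usable level. Of the 24 kept sets, 2 (Plac1 and Peg3 set 2) were called lower by limma at an adjusted p under 0.05, beside 0.55% of kept probe sets, and none was called higher, beside 1.26%. With the pool as a block 8 were called lower and 1, Cdkn1c, higher, beside 4.93% in each direction. Because the genes were chosen on this contrast, these calls are no independent test and nothing is read from their counts.

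**Figure D3:**
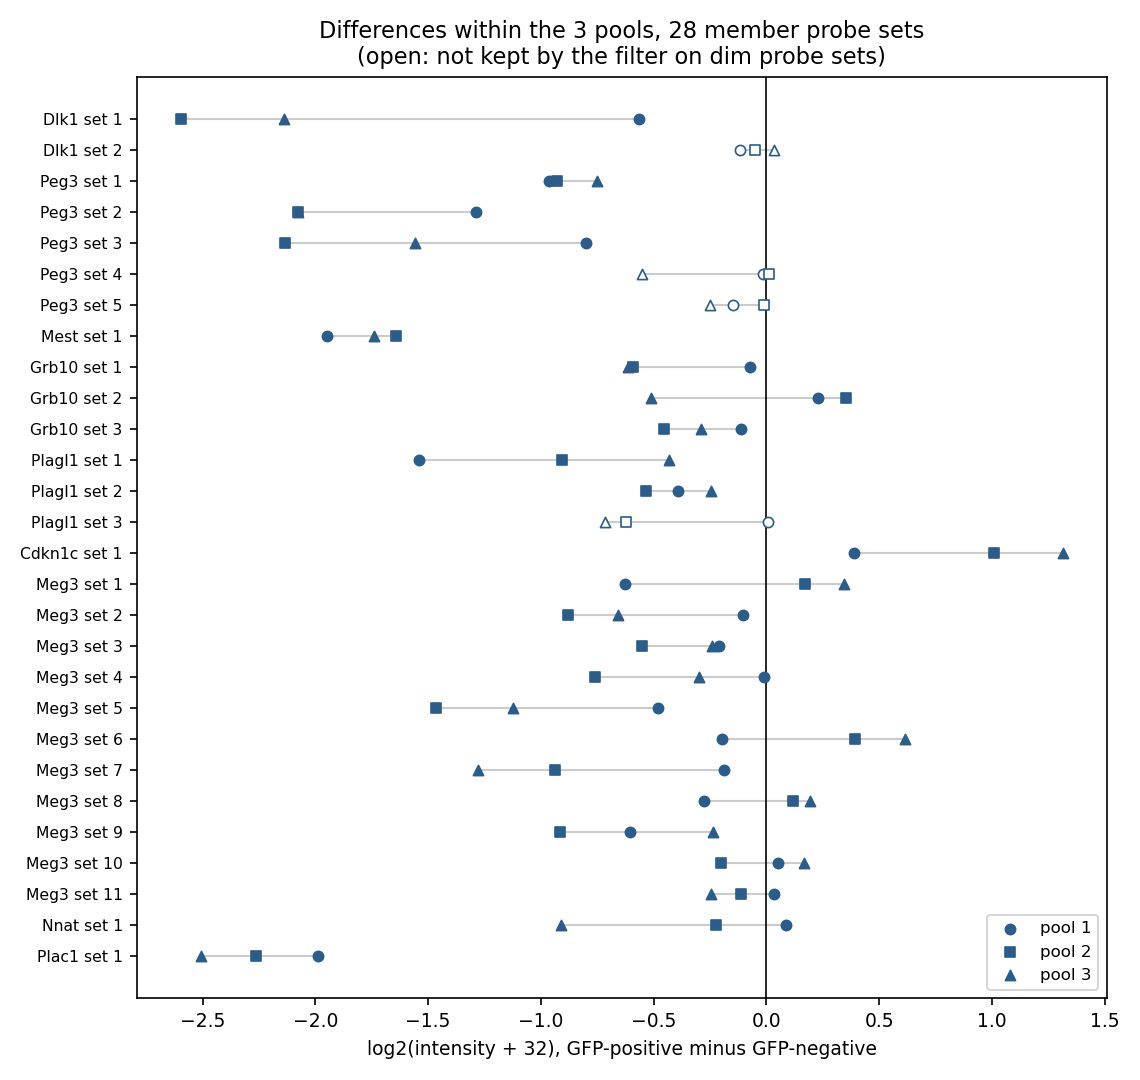
Difference in log2(intensity + 32), GFP-positive minus GFP-negative, within pools 1, 2 and 3 for each of the 28 probe sets, with the 4 that the filter did not keep drawn open. Plac1 and Mest have narrow spreads far below 0, Dlk1 set 1 has its pool 1 value apart from the other pools, Cdkn1c is above 0 in every pool, and the Meg3 sets lie on both sides.

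Genes with profiles most like those of the 3 member probe sets with the widest range were found among 22974 kept probe sets of other genes. The measure was the root mean square difference between log2 profiles over the 6 arrays, each centred on its own mean. The 5 nearest to Plac1 were Unc5c at 0.15, Slc38a4 at 0.21, Slc4a1 at 0.24, Pcgf5 at 0.24 and a second probe set of Slc4a1 at 0.25. Unc5c encodes a netrin receptor and Slc4a1 the anion exchanger of red cells, and Slc38a4 is itself a paternally expressed gene. Unc5c read 48.9, 74.1 and 63.4 in GFP-positive and 329.9, 487 and 471 in GFP-negative cells. The Slc38a4 set read 158, 312 and 224 in GFP-positive and 849.6, 1181 and 1284 in GFP-negative cells.

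For Mest the nearest were Sp6 at 0.18, Foxf1 at 0.22, Col1a2 at 0.24, Tal1 at 0.26 and Nkx1-2 at 0.27. Foxf1 is a forkhead factor of lateral mesoderm, Col1a2 a collagen chain and Tal1 a factor of blood and endothelium. Foxf1 read 45.9, 130.2 and 107 in GFP-positive and 311, 632 and 588 in GFP-negative cells. For Dlk1 they were Nrp2 at 0.11, Ets1 at 0.17, Chst15 at 0.18, Tsc22d1 at 0.18 and Nrf1 at 0.20. Nrp2, a co-receptor for semaphorins and VEGF, read 75.4, 130.2 and 129 in GFP-positive and 148, 771 and 663 in GFP-negative cells. Nrp2 had the low reading on the GFP-negative array of pool 1 that marked Dlk1.

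Imprinted genes outside the 10 members were tested across the array, with the brightest kept probe set standing for each gene. The lists of paternally expressed, maternally expressed and placental genes were also chosen with earlier results of these data known. Their counts, medians and p-values are therefore no independent test. Of 17 measured paternally expressed genes (22 listed), 2 were lower and 1 was higher in GFP-positive cells, and 14 did not pass. Over all 12628 genes 1.41% were called lower and 2.6% higher. The median log2 fold change of the list was -0.38, beside 0.01 over all genes, and 12 of the 17 were lower in all 3 pools, beside 24.9% of all genes. With the pool as a block 5 were lower and 1 higher, beside 6.76% and 8.4% of all genes. Without pool 1, 8 were lower and 1 higher of 15 measured, when 17.9% of all genes were lower and 19.5% higher. Without its GFP-negative array alone 5 of 15 were lower, when 2183 of 26752 probe sets of the array were lower and 1880 higher. Without pool 2 or 3, or GFP-positive array 2 or 3 or GFP-negative array 2, 0 passed, with 3 to 6 lower at an unadjusted limma p under 0.05. In those settings only 2 to 67 probe sets of the whole array were called higher and 0 to 10 lower.

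Slc38a4, a sodium-coupled amino acid transporter of placenta and liver, fell in GFP-positive cells. It read 795, 760.2 and 559 in GFP-positive and 2346, 1904 and 1836 in GFP-negative cells, with no overlap. Its log2 fold change was -1.49 ± 0.22 (SE, limma adjusted p = 0.0111), and its other kept probe set gave -2.13. Zdbf2, a zinc finger protein gene, read 168, 95.1 and 114 in GFP-positive and 318, 486 and 330.1 in GFP-negative cells, a log2 fold change of -1.38 ± 0.26 (SE, limma adjusted p = 0.028). Nap1l5, a nucleosome assembly protein-like gene, rose: it read 124 in pools 1 and 2 and 136 in pool 3 in GFP-positive cells, and 66.8, 57.0 and 46.6 in GFP-negative cells. Its log2 fold change was 0.85 ± 0.19 (SE, limma adjusted p = 0.0481), and it did not pass with an offset of 64 (adjusted p = 0.0513) or with no filter (adjusted p = 0.0752).

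Igf2, the growth factor whose locus holds H19, read 1136, 2009.97 and 2003 in GFP-positive and 1979, 3065 and 3315 in GFP-negative cells. Its log2 fold change of -0.70 ± 0.29 (SE) did not pass (limma adjusted p = 0.21), but passed in the blocked fit (limma adjusted p = 0.0219). Its second kept probe set, dim at 8.55 to 68.9, gave -0.33, with 0.0034, -0.35 and -0.63 within pools. Igf2r, the maternally expressed receptor that removes Igf2, had -1.04 ± 0.33 (SE, limma adjusted p = 0.116) and passed in the blocked fit (limma adjusted p = 0.017). It read 250, 350 and 317 in GFP-positive and 389, 750 and 971 in GFP-negative cells. The other probe set of Igf2r had -0.21, with mixed signs within pools (0.65, -0.51 and -0.79).

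Of 19 measured maternally expressed genes (26 listed), 2 were lower, 1 was higher and 16 did not pass, beside 1.41% lower and 2.6% higher over all genes. The median log2 fold change was 0.12, with 5 genes lower and 6 higher in all 3 pools, beside 24.9% and 28.4% of all genes. With the pool as a block 4 were lower and 4 higher, beside 6.76% and 8.4% of all genes. The 4 higher were Osbpl5, Atp10a, Commd1 and Kcnq1, and the groups of Atp10a and Commd1 overlapped. Kcnq1 read 3.66, 3.23 and 10.6 in GFP-negative cells, under the 40th percentile of each array. The filter thus kept Kcnq1 only through the GFP-positive arrays, so the count of 4 higher is no firm result. Without pool 1 the counts were 4 lower and 2 higher of 16 measured, beside 17.9% and 19.5% of all genes. Without the GFP-negative array of pool 1 they were 4 and 4 of 19, beside 2183 lower and 1880 higher of 26752 probe sets. Without pool 2, pool 3 or GFP-positive array 3, 0 passed, with 2 to 5 lower and 0 higher at an unadjusted limma p under 0.05. In those settings only 2 to 56 probe sets of the whole array were called higher and 0 to 6 lower. Klf14, a Krüppel-like factor, fell to 2.06, 19.7 and 15.9 in GFP-positive cells, against 103, 84.5 and 132 in GFP-negative cells, a log2 fold change of -1.64 ± 0.23 (SE, limma adjusted p = 0.00906). Its GFP-positive readings lay under the array medians. Mirg, a non-coding RNA of the domain that holds Dlk1 and Meg3, had a log2 fold change of -0.90 ± 0.18 (SE, limma adjusted p = 0.0355). It read 27.6, 24.9 and 29.7 in GFP-positive and 62.4, 88.9 and 87.4 in GFP-negative cells. Its other probe set had mixed signs (0.42, 0.16 and -0.81 within pools). The gene called higher was Osbpl5, an oxysterol-binding protein-like gene, which read 36.0, 43.8 and 31.6 in GFP-positive cells and 2.57, 2.56 and 3.53 in GFP-negative cells. The GFP-negative readings lay under the 40th percentile of their arrays, so the filter kept it only through the GFP-positive arrays, and no fold is given.

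Genes of placenta and trophoblast were set beside Plac1. Of 17 listed, 6 were measured, 1 was higher, 1 was lower and 4 did not pass, beside 2.6% and 1.41% of all genes, with a median log2 fold change of -0.46. Krt7, a keratin of simple epithelia, rose, with a log2 fold change of 1.4957 ± 0.21 (SE, limma adjusted p = 0.00936). It read 119.5, 163 and 160.2 in GFP-positive and 33.0, 39.2 and 22.8 in GFP-negative cells. The gene called lower was Gata3, a zinc finger factor of trophoblast and surface ectoderm, which read 2.71, 7.204 and 10.3 in GFP-positive and 39.7, 31.7 and 25.2 in GFP-negative cells. Its GFP-positive readings lay under the 40th percentile of their arrays, so the filter kept it only through the GFP-negative arrays, and with no filter it did not pass (limma adjusted p = 0.0703). Hand1, a factor of trophoblast and lateral mesoderm, overlapped between groups, with 16.8, 24.2 and 21.2 in GFP-positive and 13.9, 82.5 and 174 in GFP-negative cells, and did not pass (limma adjusted p = 0.266). Tfap2c, a factor of trophoblast and surface ectoderm, read 20.98, 84.1 and 51.6 in GFP-positive and 97.2, 186 and 153 in GFP-negative cells and did not pass (limma adjusted p = 0.0982). In the blocked fit Tfap2c passed as lower (log2 fold change -1.11, limma adjusted p = 0.00605), and without pool 1 the counts were 1 higher and 2 lower of 5 measured, beside 19.5% and 17.9% of all genes.

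These calls depended on single pools and arrays and on the adjustment: over the kept probe sets in place of genes, limma's adjusted p was 0.0515 for Mirg, 0.0682 for Nap1l5 and 0.0603 for Gata3, which then did not pass. No gene of the 3 lists passed without pool 2, when only 2 of 25031 probe sets of the whole array passed as higher and 0 as lower. The log2 fold changes then were -1.88 for Klf14, -1.59 for Slc38a4, 1.52 for Krt7, -1.06 for Zdbf2, -0.81 for Mirg and 0.875 for Nap1l5. Klf14 passed in 13 of its 16 alternatives, the others being those without pool 2, pool 3 or GFP-positive array 3. Slc38a4 passed in 11, Krt7 in 11, Zdbf2 in 10, Mirg in 8 and Nap1l5 in 7 of 16. Osbpl5 passed in 8 and Gata3 in 3 of the 9 alternatives in which the filter kept them, and the other alternatives dropped both. As each was kept only through the group where it read high, these 2 counts are no measure of stability beside those of the other genes.

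**Figure D4:**
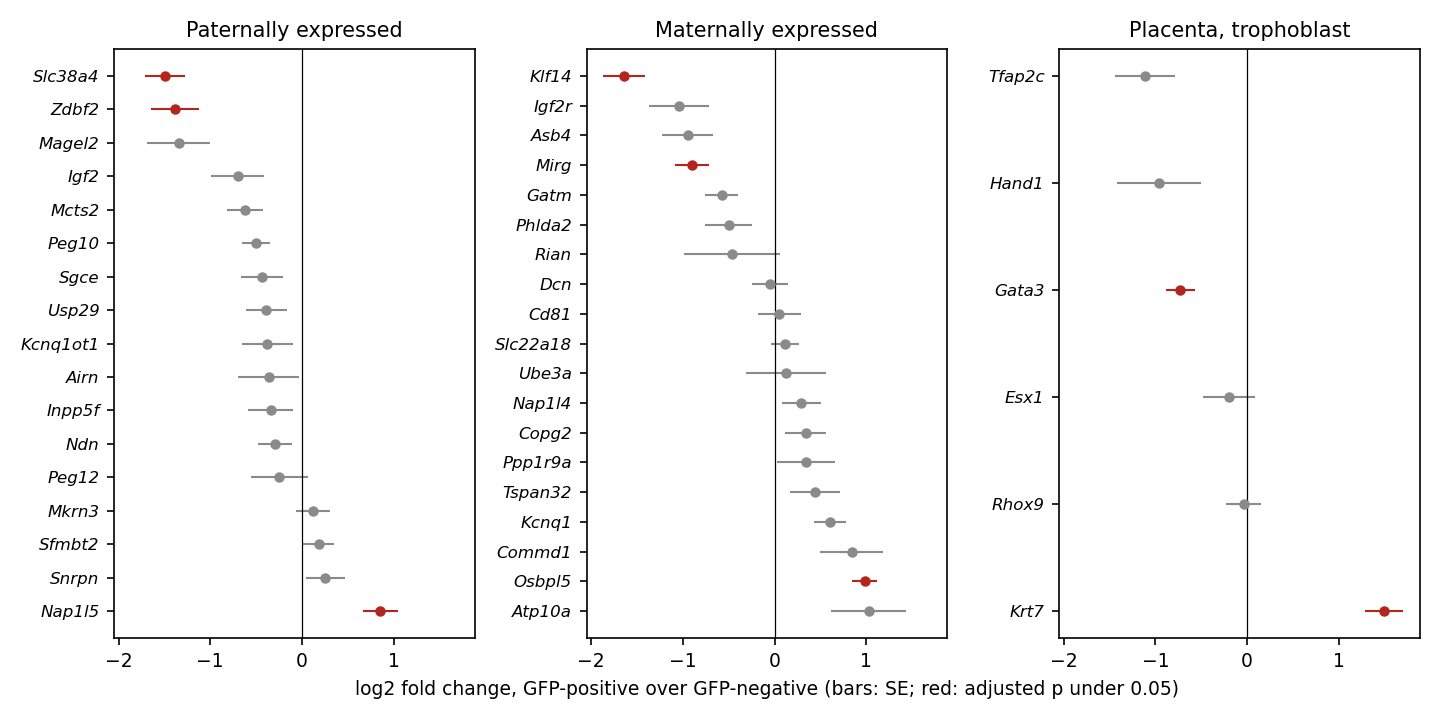
Log2 fold change, GFP-positive over GFP-negative, of the 17 paternally expressed, 19 maternally expressed and 6 placenta or trophoblast genes measured outside the 10 members, with bars for the standard error and red for an adjusted p under 0.05 (Osbpl5 and Gata3 among them, each kept through 1 group only). Most paternally expressed genes lie below 0, led by Slc38a4 at -1.49 and Zdbf2 at -1.38, while the maternally expressed genes lie on both sides, between Klf14 at -1.64 and Atp10a at 1.03.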

How the data were processed

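Affymetrix expression arrays of 3 GFP-positive and 3 GFP-negative sorted samples were used. The authors deposited linear intensity values, and the submitters' processing notes name GCOS 1.4; RNA was amplified and labelled with a kit of 2 cycles, per the labels' protocols. Each array's mean, with 2% trimmed at each end, was 150. Detection calls were not used, the number of arrays limits the precision, and 0 per-sample columns were left unused. Of 45101 probe sets, 34945 had 1 gene symbol, 932 several and 9160 none, besides 64 controls.

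Values were taken to log2(intensity + 32). Probe sets below the 40th percentile of the array on 4 or more arrays were dropped. The 27821 remaining sets were fitted with limma 3.58.1 (R 4.3.3, group as the only term, variance trend). Benjamini-Hochberg adjustment at 0.05 was over probe sets, and again over the 12628 genes for gene lists. The fit was also run on simulated data with the same noise on all arrays. That run held no pool of different RNA quality and does not measure power for these data. Errors of log2 differences are limma's standard errors, and those of intensities are SDs. Replicates are separate embryo pools. Arrays of 1 pool pair the groups, per the labels, and their deviations from group means correlated at 0.542, 0.286 and 0.436. Alternatives were the offset, normalization, filter, variance model, pool as a block, a gene's summary, and each array or pool left out.

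Members and lists were chosen with earlier results of these data known. Named genes are all member probe sets, Igf2, Igf2r, the list genes that passed, and the 5 profiles nearest to each of the 3 widest-ranging member sets. Tfap2c, Hand1, Atp10a, Commd1 and Kcnq1 were named after their values were seen.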

Additional observations from a re-analysis of the deposited data

How the results depend on the processing

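The median log2 difference of the 28 member probe sets stayed between -0.55 and -0.33 when arrays or pools were left out. Outside the block, which cannot move a balanced mean difference, 336 member values were recomputed, and 331 moved by less than the spread between replicates. Leaving out a single array cannot move a group mean by that spread, so the count of 331 is no measure of stability. The 5 that moved further did so with another offset or with quantile normalization. In 21 the sign differed, all in Meg3, Grb10 set 2, Dlk1 set 2 or Peg3 set 4. These are sets whose own difference was small or mixed. With the pool as a replicate block, 1372 probe sets were higher and 1371 lower, against 350 and 153 without it; for the gene lists the block gave 5 lower paternally expressed genes, 4 higher and 4 lower maternally expressed genes and 2 lower placental genes. With no filter 185 probe sets were higher and 67 lower, and the lists held 0 higher paternally expressed (1 at an unadjusted limma p under 0.05), 1 lower maternally expressed and 0 lower placental genes (2 unadjusted). An offset of 64 left 0 higher paternally expressed genes (1 unadjusted). Quantile normalization gave 2 higher maternally expressed and 0 lower placental genes (2 unadjusted). The filter at the 60th percentile gave 0 higher maternally expressed genes (2 unadjusted) and 0 lower placental genes (1 unadjusted), since fewer dim genes were tested, and a fit without variance trend gave 0 lower placental genes (2 unadjusted).

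When 1 array or pool was left out, higher probe sets numbered 2 to 3563 and lower ones 0 to 4080, fewest without pool 2 (679 higher and 602 lower at an unadjusted limma p under 0.05) and most without pool 1. Omitting GFP-positive array 1 left 197 higher and 159 lower, array 2 left 67 and 10, and array 3 left 56 and 6. Omitting GFP-negative array 1 left 1880 higher and 2183 lower, array 2 left 66 and 5, and array 3 left 108 and 27, while 25 and 1 were called without pool 3. Paternally expressed genes numbered 0 to 1 higher and 0 to 8 lower (0 to 1 and 3 to 9 unadjusted), maternally expressed genes 0 to 4 in each direction (0 to 6 and 2 to 5 unadjusted), and placental genes 0 to 1 higher and 0 to 2 lower (1 and 1 to 3 unadjusted). The cause of these changes was not tested. A model fitted to genes only, chosen after seeing the data, gave the same list counts. Dim sets such as Klf14, Osbpl5, Gata3 and Plagl1 set 2 are limited by their closeness to background.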
